A study of Mus musculus with 15 samples.

Results

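Casein (CAS) and spray dried plasma protein (SDPP), a bovine milk protein and a porcine blood product, were set against each other directly by comparing the 3 arrays of monolayers exposed to CAS with the 3 arrays of monolayers exposed to SDPP. These 6 of the 15 arrays of the study were chosen by the agent named in the sample labels, and no array of the medium control (MC) entered the difference. Organoids grown from duodenal crypts of wild type female C57BL/6J mice aged 9 weeks had been dissociated and plated as confluent 2D monolayers of epithelial cells. For 6 h the monolayers received the soluble, non-hydrolysed fraction of CAS, SDPP, soybean meal (SBM) or yellow meal worm (YMW) on their apical side, or DMEM in its place as the MC. All groups shared genotype, sex, age, tissue and a culture medium with EGF, Noggin, WNT3A and R-spondin. The labels give the concentration as 4% (w/v), whereas the methods equate this with a far lower mass per volume, so the dose is uncertain by a wide margin. RNA of 3 wells of a 96-well plate made 1 sample, and it was hybridized to an Affymetrix mouse gene 1.1 ST array, with 3 arrays in each of the 5 groups. The organoids came from 3 mice, but the labels do not tie an array to a mouse, and the p-values measure the spread between these arrays.

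Caseins are the main proteins of milk and carry bound calcium and phosphate. Dried plasma holds albumin, immunoglobulins and the hormones, lipids and growth factors that circulate with them. The duodenal epithelium that meets such proteins is made of dividing crypt cells, absorptive enterocytes and a few secretory lineages. It reads luminal signals through nuclear receptors and the aryl hydrocarbon receptor, and it instructs the immune cells below it through secreted cytokines.

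Each array gave 1 intensity for 35556 probe sets, from which 18820 named genes were taken, and all values below are log2 intensities or differences between them. A gene was called when it met the threshold of the study, that is, when its fold change was 1.5 or more and its p before adjustment was below 0.05. The p came from limma fitted to the 12 arrays of the 4 protein sources, and p adjusted over all genes by Benjamini-Hochberg is given as well. The background was a log2 intensity of 3.91. Markers of several epithelial lineages were present. All 16 measured stem cell markers, 11 of 11 Paneth cell, 11 of 12 goblet cell and 22 of 22 enterocyte markers were above background, against 5 of 13 leukocyte, 9 of 13 fibroblast and muscle and 1 of 6 endothelial and red cell markers. By the same measure, the higher of the CAS and SDPP means, 13077 of all 18820 genes were above background. The mean of the leukocyte list lay between 3.84 and 3.95 in the CAS and SDPP arrays. That of the fibroblast and muscle list lay between 4.12 and 4.27, above background in each of them. CAS replicate 3 and SDPP replicate 3 stood apart from the other arrays of their groups in enterocyte genes, and the count of genes called between CAS and SDPP is given with and without them below.

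With CAS the cytokine gene Tnfsf13b, the transporter gene Mfsd4a, the small GTPase gene Rhob and the TGF-beta feedback genes Pmepa1 and Skil were higher than with SDPP. With SDPP the cytochrome P450 genes Cyp1a1 and Cyp1b1 and the glucocorticoid-induced gene Fkbp5 were higher. Of 18820 genes 49 were called (0.26%), of which 29 were higher with CAS (0.154%) and 20 with SDPP (0.106%). At an adjusted p under 0.05 from limma 9 genes remained (0.0478%), and all of them were higher with CAS. That count was 2 to 4 without CAS replicate 1 or 2, SDPP replicate 1 or 2, SBM replicate 2 or YMW replicate 2 or 3, and 5 without SDPP replicate 3 or SBM replicate 3. For genes higher with SDPP the adjusted count was 0, while 542 of them had an unadjusted p under 0.05, against 415 for CAS (5.09% of all genes together). That share is close to the 0.05 expected at this threshold when no gene differs. These 957 genes became 1273 without CAS replicate 3 and 1456 without SDPP replicate 3. An intensity-based moderated statistic gave 49 called genes and 9 after adjustment. The median difference over all genes was −0.01. The 3 CAS and 3 SDPP arrays did not overlap in 1699 of all genes (9.03%). Among the called genes they did not overlap in 24 of the 29 that were higher with CAS and in 8 of the 20 that were higher with SDPP. The fold changes of called genes reached 2.14 for CAS and 2.56 for SDPP.

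**Figure D1:**
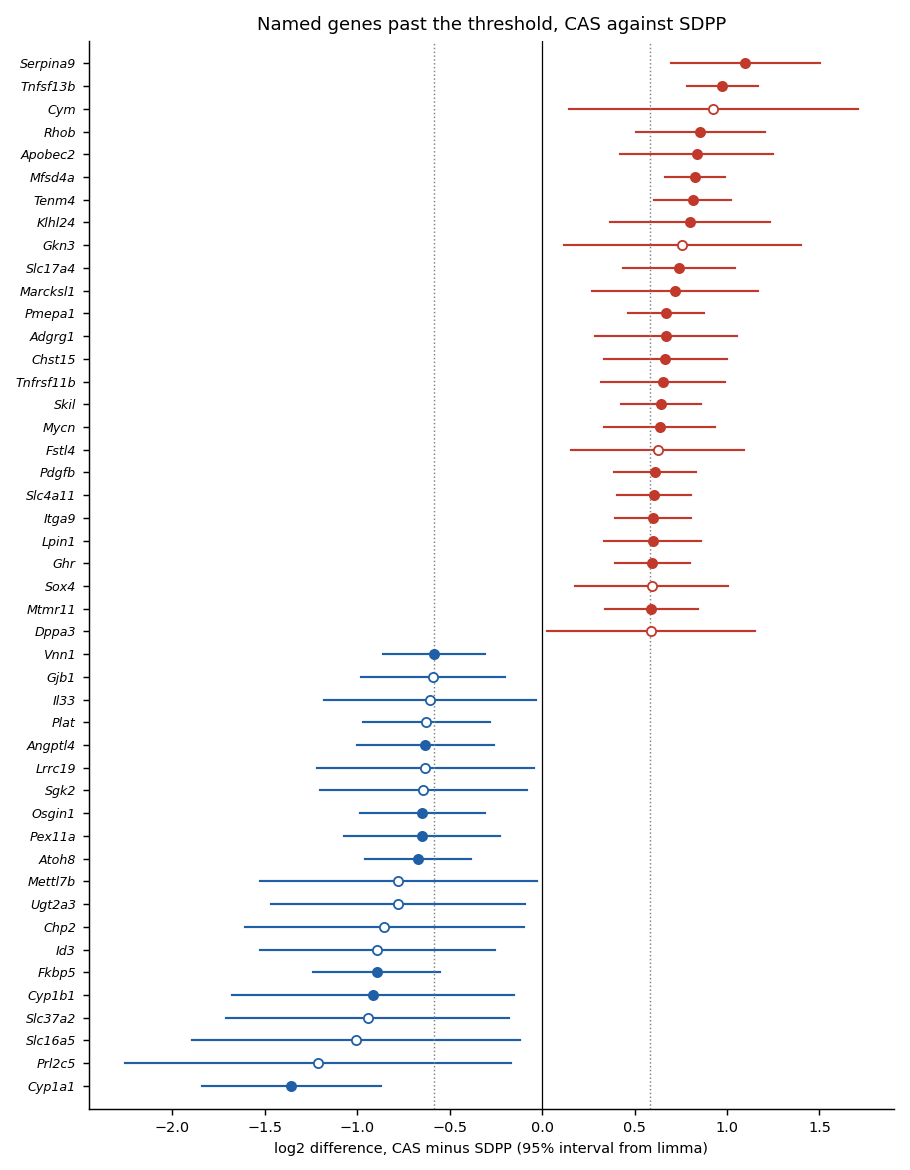
Log2 difference between CAS and SDPP (horizontal axis) for the 46 called genes with a name in use, 1 line per gene, with the 95% interval from limma. Filled points mark genes whose CAS and SDPP arrays did not overlap, open points genes whose arrays did, and dotted lines the 1.5-fold threshold. Genes higher with CAS lie to the right, led by Serpina9 at 1.10, and genes higher with SDPP to the left, led by Cyp1a1 at −1.36.

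The promoters of 4 of these genes are printed because the results return to them. They are the 250 bases upstream of the transcription start in RefSeq, assembly GRCm38.p6, and 34 of the 49 called genes had an entry in that table. For Tnfsf13b it holds 2 starts, of which 1 is shown. For Cyp1a1 and Cyp1b1, classical targets of the aryl hydrocarbon receptor, the capitals mark GCGTG, the core of the xenobiotic response element, or its reverse complement CACGC. For Tnfsf13b and Mfsd4a they mark CAGAC, the Smad-binding element of TGF-beta signalling, searched on both strands. CAGAC was not marked in the windows of Cyp1a1 and Cyp1b1, and the Cyp1a1 window also holds it. Whether Tnfsf13b or Mfsd4a responds to TGF-beta was not tested.
Cyp1a1 (chr9:57697363-57697612, plus strand): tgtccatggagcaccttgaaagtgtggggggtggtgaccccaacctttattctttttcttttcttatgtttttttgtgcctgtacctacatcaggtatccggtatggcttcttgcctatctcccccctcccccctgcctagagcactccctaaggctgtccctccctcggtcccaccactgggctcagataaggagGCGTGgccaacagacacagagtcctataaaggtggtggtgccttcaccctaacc
Cyp1b1 (chr17:79715062-79715311, minus strand): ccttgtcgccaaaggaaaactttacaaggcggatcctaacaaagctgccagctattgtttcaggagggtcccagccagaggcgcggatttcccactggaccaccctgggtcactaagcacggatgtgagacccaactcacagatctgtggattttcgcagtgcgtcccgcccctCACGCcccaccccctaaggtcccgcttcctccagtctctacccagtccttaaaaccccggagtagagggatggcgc
Tnfsf13b (chr8:10006217-10006466, plus strand): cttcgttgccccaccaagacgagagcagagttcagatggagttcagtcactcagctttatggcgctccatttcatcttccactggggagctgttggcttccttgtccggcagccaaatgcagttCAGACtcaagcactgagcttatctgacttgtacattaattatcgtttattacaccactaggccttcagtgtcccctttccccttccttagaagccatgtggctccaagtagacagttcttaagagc
Mfsd4a (chr1:132068063-132068312, minus strand): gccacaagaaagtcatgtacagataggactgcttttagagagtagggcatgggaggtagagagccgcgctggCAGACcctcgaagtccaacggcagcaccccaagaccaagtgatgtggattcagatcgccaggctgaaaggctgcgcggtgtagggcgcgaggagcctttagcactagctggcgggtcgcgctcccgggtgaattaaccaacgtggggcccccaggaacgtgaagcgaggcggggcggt
The single marked match began 54 bases before the start in Cyp1a1, 76 in Cyp1b1, 126 in Tnfsf13b and 178 in Mfsd4a. GCGTG on either strand was present in 28.2% and CAGAC in 42.2% of the 32851 promoters of the table. Such matches are common, and they describe the letters of these windows only. Binding of the aryl hydrocarbon receptor or of SMAD factors at the matches was not tested. Bases farther upstream were not searched.

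Tnfsf13b had the largest difference among the genes that passed after adjustment. It encodes BAFF, a cytokine that B cells need to survive. The log2 intensities were 7.24, 7.35 and 7.30 in CAS replicates 1 to 3 and 6.30, 6.37 and 6.30 in the SDPP replicates. The groups lay far apart, with a spread inside each group that was a small part of the gap. The means were 7.29 ± 0.06 and 6.32 ± 0.04 (SD, n = 3), and the difference was 0.97 with an SE of 0.09 (adjusted p = 0.00039 from limma), a 1.97-fold change. The 3 SBM arrays lay between 5.93 and 6.07, the YMW arrays between 5.74 and 5.99 and the MC arrays between 5.92 and 6.44. All CAS arrays were thus above every other array. A second, dimmer probe set assigned to Tnfsf13b, with a mean of 4.69, differed by 0.09. The highest adjusted p of the first probe set over 13 other settings was 0.0160.
Of the 16 measured genes through which an epithelium addresses B cells, Tnfsf13b was the one called, against 0.26% of all genes, and the median difference of the list was 0.03. The receptors of BAFF, which B cells carry, differed little. Tnfrsf13b, encoding TACI, differed by −0.02 and Tnfrsf13c, encoding the BAFF receptor, by 0.00. Pigr, which carries antibodies across the epithelium, had means of 11.07 with CAS and 11.16 with SDPP (difference −0.09, adjusted p = 0.994 from limma). The chemokine gene Ccl25 had a difference of −0.38 and Ccl28 one of −0.02, and neither met the threshold.

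**Figure D2:**
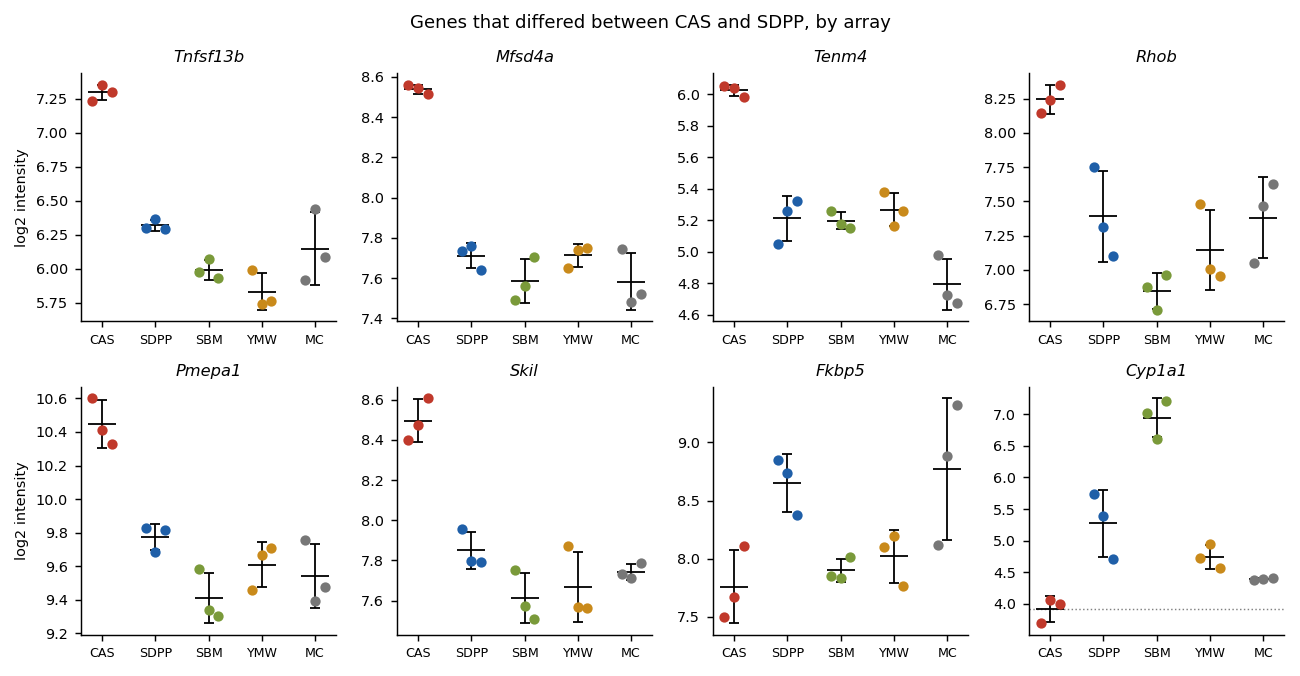
Log2 intensity (vertical axis, a separate range in each panel) of 8 genes in the 15 arrays, by group, with 1 point per array and the group mean ± SD as bars. The CAS arrays lie above all others for Tnfsf13b, Mfsd4a, Tenm4, Rhob, Pmepa1 and Skil, and below the SDPP arrays for Fkbp5 and Cyp1a1, where the dotted line is the background of 3.91.

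Mfsd4a, a membrane transporter of the major facilitator family, was higher with CAS at almost the same level in each CAS array. Its log2 intensity was 8.56, 8.54 and 8.51 in the CAS arrays and 7.73, 7.76 and 7.64 in the SDPP arrays. The CAS values lay within a few hundredths of each other and well above all SDPP values. The difference was 0.83 with an SE of 0.07 (adjusted p = 0.00039 from limma), while the SBM, YMW and MC means were 7.59, 7.71 and 7.58. Tenm4, a teneurin that joins cells across their contacts, had 6.05, 6.04 and 5.98 with CAS and 5.05, 5.26 and 5.32 with SDPP. No SDPP array came near a CAS array. Its difference was 0.81 with an SE of 0.10 (adjusted p = 0.00634, up to 0.150 over 13 other settings).
The other genes past the adjusted threshold differed by less. Ghr, the growth hormone receptor, had 7.02, 7.07 and 7.01 with CAS and 6.43, 6.50 and 6.38 with SDPP, a difference of 0.60 (adjusted p = 0.0482 from limma). Slc4a11, a transporter of the bicarbonate family, had 8.70, 8.68 and 8.62 with CAS and 8.09, 7.96 and 8.14 with SDPP, a difference of 0.60 (adjusted p = 0.0482). Itga9, an integrin subunit, had 4.27, 4.29 and 4.22 and 3.70, 3.58 and 3.69, a difference of 0.60 (adjusted p = 0.0482), and its SDPP arrays were below background. In all of these genes the groups were apart. The choice to name Ghr, Slc4a11 and Itga9 followed a look at their values. The call of each was lost, at a fold just under 1.5, when 1 array was left out. The array was SDPP replicate 2 for Slc4a11 (0.55) and Itga9 (0.56), and CAS replicate 2 (0.58) or SDPP replicate 3 (0.57) for Ghr. Pmepa1 and Skil, described with their pathway, also passed, and the last was a predicted gene whose means were below background.

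Genes of TGF-beta and BMP signalling moved in both directions. TGF-beta and BMP ligands act through receptor kinases on SMAD factors, and in the gut BMP signals restrain the crypt and rise toward the villus. The medium of all groups held Noggin, an inhibitor of BMP ligands. Of 24 measured genes 4 were called, against 0.26% of all genes. Pmepa1 and Skil were higher with CAS, Atoh8 and Id3 were higher with SDPP, and the median of the list was 0.09.
Pmepa1 encodes a membrane protein that is induced by TGF-beta and holds its receptor signal down. Its log2 intensity was 10.60, 10.41 and 10.33 in the CAS arrays and 9.83, 9.69 and 9.82 in the SDPP arrays. All CAS arrays were above all SDPP arrays, which in turn overlapped the YMW arrays (9.46 to 9.71) and the MC arrays (9.40 to 9.76). The difference was 0.67 with an SE of 0.10 (adjusted p = 0.0330 from limma, up to 0.248 over the other settings).
Skil encodes SnoN, a repressor that binds SMAD factors and is itself a target of TGF-beta. It had 8.40, 8.48 and 8.61 with CAS and 7.96, 7.80 and 7.79 with SDPP. The groups did not overlap, and the difference was 0.64 with an SE of 0.10 (adjusted p = 0.0482 from limma, up to 0.304 over the other settings). Smad7, the inhibitory SMAD, had 6.52, 6.68 and 7.07 with CAS and 6.63, 6.43 and 5.99 with SDPP, and its groups overlapped (difference 0.41, adjusted p = 0.974 from limma). Tgif1, another corepressor of SMAD factors, differed by 0.26 (adjusted p = 0.935).
Id3, an inhibitor of basic helix-loop-helix factors and a direct target of BMP signals, had 5.99, 5.99 and 6.62 with CAS and 7.45, 7.31 and 6.51 with SDPP. SDPP replicate 3 lay below CAS replicate 3, so the groups overlapped. The difference was −0.89 with an SE of 0.30 (adjusted p = 0.811 from limma), and it lay between −1.18 and −0.71 over 13 other settings. Atoh8, a helix-loop-helix factor, had 5.39, 5.03 and 4.89 with CAS and 5.67, 5.81 and 5.84 with SDPP. Its groups did not overlap, with a difference of −0.67 (adjusted p = 0.166). Without CAS replicate 3 that difference was −0.56, under the fold threshold. Id1 differed by −0.38 (adjusted p = 0.994) and Id2 by −0.23 (adjusted p = 0.994). Among the ligands, Bmp7 differed by −0.32 (adjusted p = 0.887), Bmp2 by −0.15 and Tgfb1 by 0.10, and none met the threshold.

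Rhob encodes a short-lived small GTPase that controls actin and endosome traffic. Its log2 intensity was 8.14, 8.24 and 8.35 in the CAS arrays and 7.75, 7.32 and 7.10 in the SDPP arrays. CAS was higher in every pairing of arrays, although the SDPP arrays spread more widely than the CAS arrays. The difference was 0.86 with an SE of 0.16 (adjusted p = 0.135 from limma). SBM had the lowest mean, 6.85, and the MC arrays lay between 7.05 and 7.63.
Marcksl1 and Tnfrsf11b were called among 10 measured genes that mark M cells, the epithelial cells that sample antigen, where 0.26% of all genes were called. Marcksl1, an actin-binding protein, had 8.04, 8.16 and 7.60 with CAS and 7.19, 6.97 and 7.48 with SDPP (difference 0.72, adjusted p = 0.623 from limma), and a second probe set differed by 0.43. Tnfrsf11b, encoding osteoprotegerin, the decoy receptor of RANKL, had 6.75, 6.84 and 6.37 and 5.83, 6.04 and 6.12 (difference 0.66, adjusted p = 0.357). In both genes the groups did not overlap. Tnfrsf11b lost its call without CAS replicate 2 (0.56) or SDPP replicate 1 (0.57). Of the 10 genes 8 had a positive difference, and the median was 0.08. Tnfaip2 differed by −0.46 (adjusted p = 0.550) and Ccl20, the chemokine of follicle epithelium, by −0.40 (adjusted p = 0.830), both below the fold threshold. Gp2, the defining receptor of M cells, had means of 3.08 and 3.00, under background.
Sox4, a transcription factor of progenitor cells, was the 1 called gene of 29 Wnt, Notch and lineage regulators, against 0.26% of all genes. Its difference was 0.59 (adjusted p = 0.771 from limma). Its arrays overlapped, because SDPP replicate 3 (9.11) was above CAS replicate 3 (8.97). It lost its call without CAS replicate 1 (0.45), CAS replicate 2 (0.57), SDPP replicate 1 (0.49) or SDPP replicate 2 (0.49). Sox9, of the stem cell list, differed by 0.51 (adjusted p = 0.700), under the fold threshold, and none of the 16 stem cell genes was called. Mycn, a Myc family factor that was in none of these lists, had 5.51, 5.63 and 5.17 with CAS and 4.73, 4.57 and 5.10 with SDPP, a difference of 0.64 (adjusted p = 0.276). It lost its call without CAS replicate 2 (0.54) or SDPP replicate 2 (0.52).

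Serpina9, a protease inhibitor, showed the largest difference of the genes higher with CAS. Its log2 intensity was 5.37, 4.84 and 4.38 in the CAS arrays and 3.73, 3.83 and 3.74 in the SDPP arrays. All SDPP arrays were below the background of 3.91, and the CAS arrays spread more widely than the SDPP arrays. The difference was 1.10 with an SE of 0.19 (adjusted p = 0.0639 from limma). Apobec2, of the cytidine deaminase family, had 5.51, 5.83 and 5.21 and 4.55, 4.53 and 4.96 (difference 0.84, adjusted p = 0.305). Slc17a4, an anion transporter of the intestine, had 8.85, 8.89 and 9.08 with CAS and 8.12, 8.40 and 8.08 with SDPP (difference 0.74, adjusted p = 0.135). The arrays of both genes were apart, and their calls were kept in all 13 other settings. Klhl24, a substrate adaptor of a ubiquitin ligase, differed by 0.80, Adgrg1, an adhesion receptor, by 0.67 and Chst15, a sulfotransferase of chondroitin chains, by 0.67, with no overlap between groups. Their adjusted p from limma was 0.457, 0.520 and 0.307. Adgrg1 lost its call without CAS replicate 1 (0.57), and Chst15 without CAS replicate 2 (0.57) or SDPP replicate 1 (0.56).
Other genes higher with CAS, named after their values were seen, lost their call without single arrays. Cym, encoding the milk-clotting protease chymosin, had 9.13, 8.50 and 7.79 with CAS and 7.33, 7.21 and 8.11 with SDPP. CAS replicate 3 was below SDPP replicate 3, so the groups overlapped, and the difference was 0.93 (adjusted p = 0.923 from limma). It lost its call without CAS replicate 1 (0.60), CAS replicate 2 (0.91), SDPP replicate 1 (0.82) or SDPP replicate 2 (0.75). In SBM the same gene lay between 6.84 and 7.96. Gkn3, a gastrokine of the stomach, had 8.42, 7.86 and 7.23 and 6.94, 6.87 and 7.42, again with overlap (difference 0.76, adjusted p = 0.927). Pdgfb, encoding a platelet-derived growth factor subunit, differed by 0.61 (adjusted p = 0.0572) and Lpin1, a phosphatidate phosphatase of lipid synthesis, by 0.60 (adjusted p = 0.178), with no overlap. Fstl4 (0.63), Mtmr11 (0.59) and Dppa3 (0.59) completed the named genes, and the log2 intensity of Dppa3 with CAS was 4.37, little above background. A second probe set of Dppa3 differed by −0.08. Gkn3, Pdgfb, Lpin1, Fstl4, Mtmr11 and Dppa3 each lost their call without any one of 3 or 4 of the 6 arrays, with differences between 0.38 and 0.75. For Pdgfb these differences were 0.53 to 0.57 and for Lpin1 0.49 to 0.57, under the fold threshold. Another 3 called genes were predicted genes or a small RNA.

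Cyp1a1 had the largest difference of all called genes, and its CAS arrays were at the background. Its product, a cytochrome P450, oxidizes planar aromatic compounds, and binding of these to the aryl hydrocarbon receptor switches the gene on. The log2 intensities were 3.69, 4.07 and 4.00 in the CAS arrays, 5.74, 5.38 and 4.70 in the SDPP arrays, 7.02, 6.60 and 7.21 in the SBM arrays and 4.73, 4.95 and 4.57 in the YMW arrays. The order was therefore SBM, then SDPP and YMW, then CAS, and SDPP overlapped YMW in SDPP replicate 3. The difference of CAS minus SDPP was −1.36 with an SE of 0.22 (adjusted p = 0.0572 from limma), a 2.56-fold change. The MC arrays lay between 4.38 and 4.41, above each CAS array and below each SDPP array. Since the CAS mean of 3.92 is at the background, the difference is limited by the lowest signal the array resolves.
Cyp1b1, which the same receptor induces, had 4.90, 4.41 and 4.40 with CAS and 5.39, 5.09 and 5.97 with SDPP. The groups were apart by a small gap, between CAS replicate 1 and SDPP replicate 2. The difference was −0.92 with an SE of 0.35 (adjusted p = 0.902 from limma). It lost its call without CAS replicate 2 (−0.84), CAS replicate 3 (−0.83) or SDPP replicate 3 (−0.67). A second probe set, with a mean of 3.48, differed by −0.14. With MC the arrays ranged between 3.04 and 4.85, so Cyp1b1 did not follow Cyp1a1 there. These were the 2 called genes of 9 measured targets and partners of the receptor, against 0.106% of all genes called as higher with SDPP, and the median of the list was −0.12. Ahr itself differed by −0.12 (adjusted p = 0.994), its partner Arnt by 0.05 and the repressor Ahrr by −0.12 (adjusted p = 0.994). The further targets Nqo1 (0.06), Aldh3a1 (0.02) and Cyp1a2 (0.07) were not called, and Cyp1a2 was below background.

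Fkbp5 was higher with SDPP in every pairing of arrays. It encodes a cochaperone of the glucocorticoid receptor that glucocorticoids strongly induce. The log2 intensity was 7.50, 7.67 and 8.11 in the CAS arrays and 8.85, 8.74 and 8.38 in the SDPP arrays. The highest CAS array was still below the lowest SDPP array. The difference was −0.89 with an SE of 0.16 (adjusted p = 0.0929 from limma). SBM arrays (7.84 to 8.01) and YMW arrays (7.77 to 8.20) lay below every SDPP array, whereas the MC arrays reached from 8.12 to 9.32.
Of 28 measured glucocorticoid and FOXO responsive genes, Fkbp5 and Angptl4 were called, against 0.26% of all genes, and the median of the list was −0.10. Angptl4, a secreted inhibitor of lipoprotein lipase, had 5.43, 5.21 and 5.53 with CAS and 6.25, 6.14 and 5.68 with SDPP (difference −0.63, adjusted p = 0.550 from limma). The groups did not overlap. Sgk1, a kinase induced by glucocorticoids, had 4.26, 4.27 and 4.48 with CAS and 5.26, 5.09 and 4.35 with SDPP, and SDPP replicate 3 lay inside the CAS range (difference −0.56, adjusted p = 0.821). The metallothionein genes Mt2 (−0.32, adjusted p = 0.512) and Mt1 (−0.13, adjusted p = 0.830) were below the fold threshold. No other member of the list was called. Tsc22d3, encoding GILZ, differed by −0.32 (adjusted p = 0.994), Per1 by −0.15 and Klf9 by −0.04. Ddit4, an inhibitor of mTOR signalling, had 11.13, 11.12 and 11.14 with CAS and 10.49, 10.84 and 10.72 with SDPP, a difference of 0.45 (adjusted p = 0.305) in favour of CAS. The receptor gene Nr3c1 differed by −0.10 (adjusted p = 0.994), and Hsd11b2, the enzyme that inactivates glucocorticoids, by 0.31 (adjusted p = 0.771).
Vnn1 joined Angptl4 as a called gene among 21 measured targets of PPAR-alpha and enzymes of fatty acid oxidation, against 0.26% of all genes, and the median of the list was −0.13. Vnn1, a pantetheinase, had 5.59, 5.60 and 5.90 with CAS and 6.56, 6.12 and 6.17 with SDPP (difference −0.59, adjusted p = 0.276 from limma). Pex11a, which divides peroxisomes and was in none of these lists, had 6.12, 6.24 and 6.52 and 7.16, 6.98 and 6.69 (difference −0.65, adjusted p = 0.700). Neither gene's groups overlapped. Cpt1a, the gate of mitochondrial fatty acid import, differed by −0.29 (adjusted p = 0.771) and the receptor gene Ppara by −0.37 (adjusted p = 0.994). The core oxidation genes Hadha (−0.04) and Acadl (−0.01) were near zero.
Osgin1, which oxidative stress induces, was the 1 called gene of 34 glutathione and NRF2 genes, against 0.26% of all genes. It had 6.06, 6.29 and 6.68 with CAS and 7.14, 7.04 and 6.80 with SDPP (difference −0.65, adjusted p = 0.393 from limma). Plat, encoding tissue plasminogen activator, was the 1 called gene of 33 wound healing genes, against the same 0.26%. It had 8.16, 8.37 and 8.85 with CAS and 9.29, 9.22 and 8.75 with SDPP, and SDPP replicate 3 lay below CAS replicate 3 (difference −0.63, adjusted p = 0.477). Angptl4, Vnn1, Pex11a, Osgin1 and Plat each lost their call without at least 2 of CAS replicates 1 and 2 and SDPP replicates 1 and 2, taken singly, with differences between −0.58 and −0.45. Fkbp5 kept its call in all 13 other settings.

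**Figure D3:**
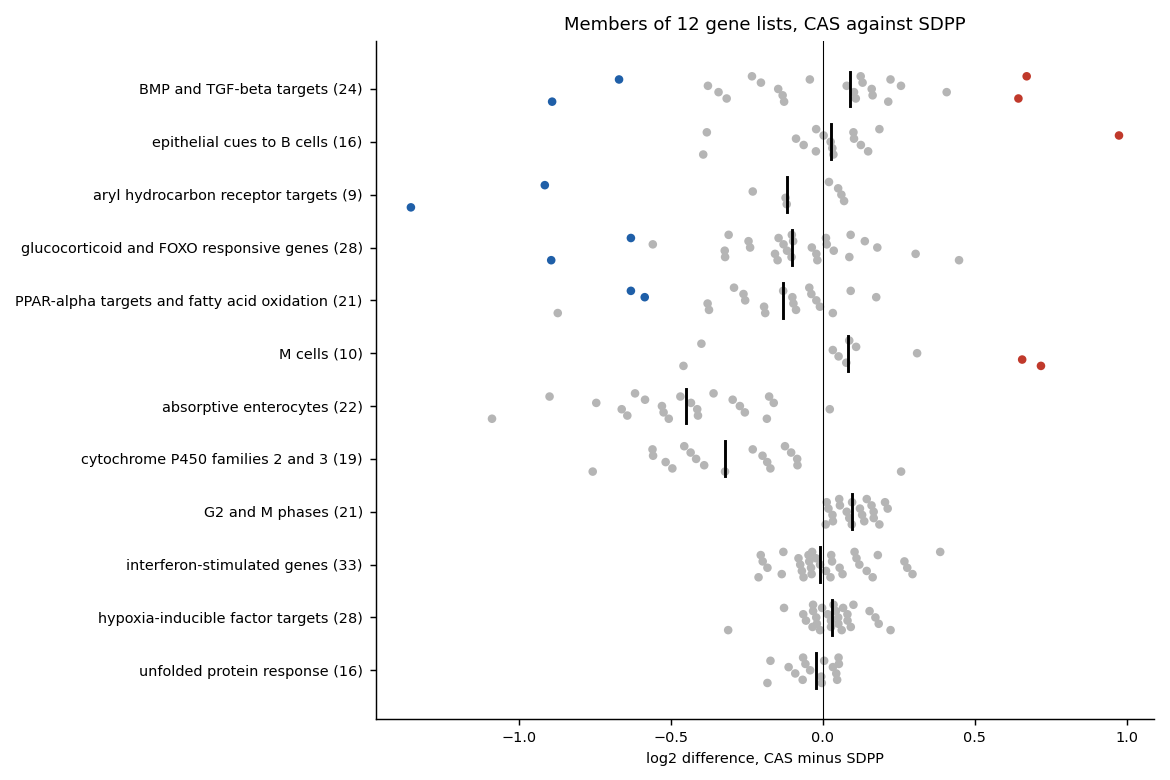
Log2 difference between CAS and SDPP (horizontal axis) of the members of 12 gene lists, with 1 point per gene and the number of measured genes in brackets; black bars are list medians, red points called genes higher with CAS and blue points called genes higher with SDPP. The enterocyte median lies at −0.45 and that of cytochrome P450 families 2 and 3 at −0.32 without a called gene in either. The aryl hydrocarbon receptor list holds 2 called genes and the B cell list 1.

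Genes of absorptive enterocytes had lower values with CAS than with SDPP on average, but the groups overlapped and none met the threshold. The list holds transporters, brush border enzymes and lipid carriers of the villus. Of 22 measured members, 21 had a negative difference and none was called or had an unadjusted p under 0.05 in limma. The median was −0.45, against −0.01 over all genes. The mean log2 intensity of the list was 8.05, 8.27 and 9.08 in CAS replicates 1 to 3 and 9.53, 9.18 and 8.09 in the SDPP replicates. SDPP replicate 3 thus lay among the low CAS arrays and CAS replicate 3 near the high SDPP arrays. In a monolayer, fewer enterocytes and less of their RNA per cell cannot be told apart.
Slc2a2, the glucose transporter GLUT2, had 5.66, 6.52 and 7.96 with CAS and 9.00, 8.38 and 6.03 with SDPP (difference −1.09, adjusted p = 0.994 from limma). Fabp2, an intracellular carrier of fatty acids, had 8.03, 8.32 and 9.46 and 10.50, 9.86 and 8.15 (difference −0.90, adjusted p = 0.994). Slc5a1, the sodium-coupled glucose transporter, had 8.36, 8.42 and 9.19 and 9.90, 9.45 and 8.60 (difference −0.66, adjusted p = 0.982). In each of them the highest CAS array was replicate 3 and the lowest SDPP array was replicate 3. Among the other groups, the enterocyte mean was 7.98 to 8.92 with SBM, 8.13 to 8.98 with YMW and 8.19, 10.12 and 10.17 in MC replicates 1 to 3.
The lists whose median lay beyond 0.2 were this one, lipid absorption and chylomicrons (−0.33, 23 genes), cytochrome P450 families 2 and 3 (−0.32, 19 genes) and conjugation enzymes (−0.23, 19 genes). In the last list Ugt2a3, a glucuronosyltransferase, was the 1 called gene (−0.78, adjusted p = 0.935 from limma), against 0.26% of all genes. In each of these lists CAS replicate 3 had the highest mean of the CAS arrays and SDPP replicate 3 the lowest of the SDPP arrays. Conjugation enzymes, for example, had 5.55, 5.72 and 6.11 with CAS and 6.40, 6.21 and 5.64 with SDPP.

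**Figure D4:**
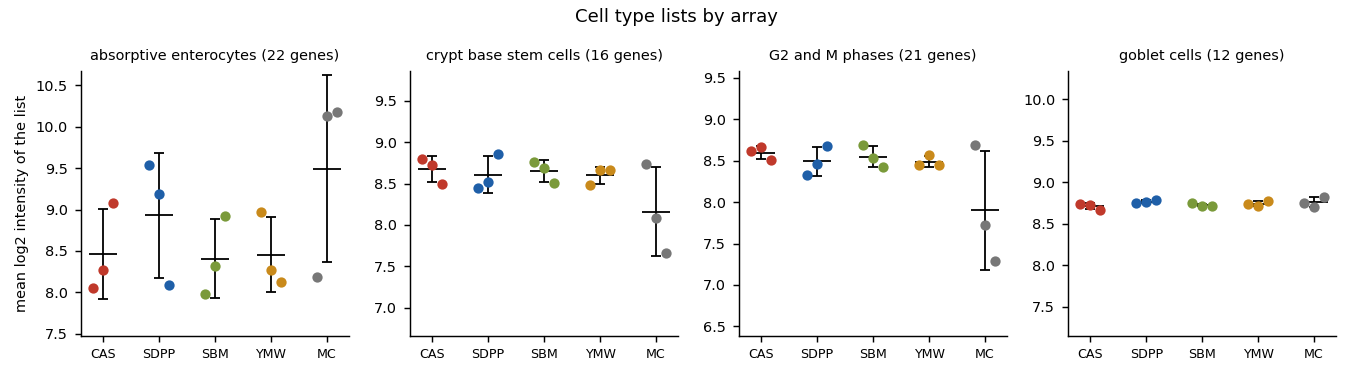
Mean log2 intensity (vertical axis, the same span in each panel) of 4 gene lists in the 15 arrays by group, with 1 point per array in replicate order and the group mean ± SD as bars. The enterocyte mean spans 8.05 to 9.08 over the CAS arrays and 8.09 to 9.53 over the SDPP arrays, while the goblet cell mean stays between 8.67 and 8.79 in these 6.

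In most genes called as higher with SDPP, replicate 3 of each source lay toward the other source. In 17 of the 20, SDPP replicate 3 was the lowest SDPP array, in 17 CAS replicate 3 was the highest CAS array, and in 12 SDPP replicate 3 fell within the CAS range. The genes higher with CAS showed the mirror image in part. In 20 of the 29, CAS replicate 3 was the lowest CAS array, in 13 SDPP replicate 3 was the highest SDPP array, and in 4 SDPP replicate 3 fell within the CAS range. The share over all genes was not computed for any of these counts, so they describe the called genes only. Il33, an alarmin of epithelial nuclei, had 7.55, 7.38 and 8.20 with CAS and 8.84, 8.49 and 7.61 with SDPP (difference −0.61, adjusted p = 0.964 from limma). It was the 1 called gene of 33 in the NF-kB and chemokine list. It was also the 1 of 18 in the list of YAP targets and injured epithelium, against 0.26% of all genes. Slc16a5, a monocarboxylate transporter, had 6.32, 6.52 and 7.65 and 8.42, 8.11 and 6.98 (difference −1.01, adjusted p = 0.935). Slc37a2, a sugar phosphate transporter, had 4.58, 4.32 and 5.26 and 6.37, 5.97 and 4.65 (difference −0.94, adjusted p = 0.882). All of these overlapped between the groups. The others were Gjb1 (−0.59), a gap junction connexin, Sgk2 (−0.64), a kinase, Lrrc19 (−0.63), Mettl7b (−0.78), Chp2 (−0.85), a cofactor of sodium-proton exchangers, and Prl2c5 (−1.21), of a family of near-identical genes that the probes may not separate. Apart from Il33 these genes were named after their values were seen. Il33 and these 8 genes each lost their call without CAS replicate 1, CAS replicate 2, SDPP replicate 1 or SDPP replicate 2, and Ugt2a3 without CAS replicate 1, CAS replicate 2 or SDPP replicate 1.
In 12 of the 20 genes MC replicates 2 and 3, which had the highest enterocyte means, lay above all CAS and SDPP arrays, and in 19 of the 29 genes higher with CAS they lay below all of them. For these counts, too, the share over all genes was not computed. The part of the enterocyte genes in these differences was not tested. The counts moved strongly with the arrays that stand apart. Without CAS replicate 3, 134 genes were called, 37 higher with CAS and 97 with SDPP. Without SDPP replicate 3, 217 were called, 35 higher with CAS and 182 with SDPP. Of the 20 genes, Cyp1a1, Fkbp5 and Id3 kept their call whichever of the 6 arrays was left out, and so did 12 of the 29 genes higher with CAS.

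Genes of the G2 and M phases differed little. All 21 measured members had a positive difference, between 0.01 and 0.21, with a median of 0.10, and none was called or had an unadjusted p under 0.05 in limma. The kinetochore gene Ndc80 had the largest (0.21, adjusted p = 0.994) and the spindle checkpoint kinase gene Bub1 the next (0.20, adjusted p = 0.994). The list mean was 8.61, 8.66 and 8.51 with CAS and 8.33, 8.47 and 8.68 with SDPP, so the groups overlapped. The 23 genes of DNA replication had a median of −0.03.
Several stress and immune lists were flat as well. None of 33 interferon-stimulated genes (median −0.01), 28 targets of the hypoxia-inducible factor (0.03), 16 genes of the unfolded protein response (−0.02), 27 of amino acid sensing (−0.01) or 21 of cholesterol synthesis (0.00) was called. At an unadjusted p under 0.05 these lists held 0, 1, 1, 3 and 0 genes in limma, where 5.09% of all genes did. At the same threshold the apoptosis and p53 list held 4 of 22 genes, all higher with CAS and none called. The NF-kB and chemokine list held 5 of 33, all higher with SDPP. Among the immediate early genes Jun differed by 0.42 (adjusted p = 0.159) and Klf10, which TGF-beta induces, by 0.45 (adjusted p = 0.573), both under the fold threshold. Claudin 4 of the tight junction differed by 0.25 (adjusted p = 0.873). In all, 18 of 975 genes held by the 52 lists were called (1.85%, against 0.26% of all genes), in 13 of the lists. The lists were chosen with results of these data known, so this share is a description. The 39 lists without a called gene, which include enteroendocrine and tuft cells, retinoid handling, bile acids, brush border peptidases, prostaglandins, oxidative phosphorylation, histones, motor proteins and heat shock, had medians between −0.45 and 0.10, of which 28 were below 0.

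The SBM and YMW arrays give a level against which both sources can be placed. CAS differed from the mean of SBM and YMW in 41 genes at the study's threshold (0.218%), 30 of them higher with CAS (0.159%), and in 51 genes at an adjusted p under 0.05 from limma (0.271%). The latter count was 9 without CAS replicate 2, 11 without CAS replicate 1, 17 without SBM replicate 2 or YMW replicate 3, 23 without YMW replicate 2, 32 without CAS replicate 3 or SDPP replicate 2, and 16 with all 15 arrays. SDPP differed from that mean in 21 genes (0.112%), all higher with SDPP, and in 0 after adjustment by limma or by the intensity-based statistic, with 756 (4.02%) and 753 at an unadjusted p under 0.05. The share of 4.02% is below the 0.05 expected at this threshold when no gene differs. The 756 became 1493 without SDPP replicate 3, and after adjustment 1 gene passed without SBM replicate 3. Both comparisons share arrays with CAS minus SDPP and with each other, so they are no independent evidence and only their values are set side by side. The counts for SDPP rested on single arrays, with 189 without SDPP replicate 3, 58 without SBM replicate 3, 53 without YMW replicate 1 and 10 to 12 without any one of SDPP replicates 1 and 2, SBM replicates 1 and 2 and YMW replicates 2 and 3. For CAS the count was 65 without CAS replicate 3.
Tnfsf13b was 1.38 above the mean of SBM and YMW with CAS and 0.41 above it with SDPP. Rhob had 1.25 and 0.39, and Pmepa1 0.94 and 0.27, so SDPP lay between CAS and the other sources for these genes. Mfsd4a had 0.89 with CAS and 0.06 with SDPP, and Tenm4 0.79 and −0.02, so the SDPP mean was close to that of SBM and YMW. Fkbp5 showed the opposite arrangement, with −0.20 for CAS and 0.69 for SDPP. Id3 had −0.28 and 0.61. Cyp1a1 was below the mean of SBM and YMW with both sources, by −1.93 with CAS and −0.57 with SDPP, since SBM had the highest level. Plat was −0.74 with CAS and −0.11 with SDPP, and Vnn1 −0.52 and 0.06, so for these the CAS mean lay farther from SBM and YMW than the SDPP mean.

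**Figure D5:**
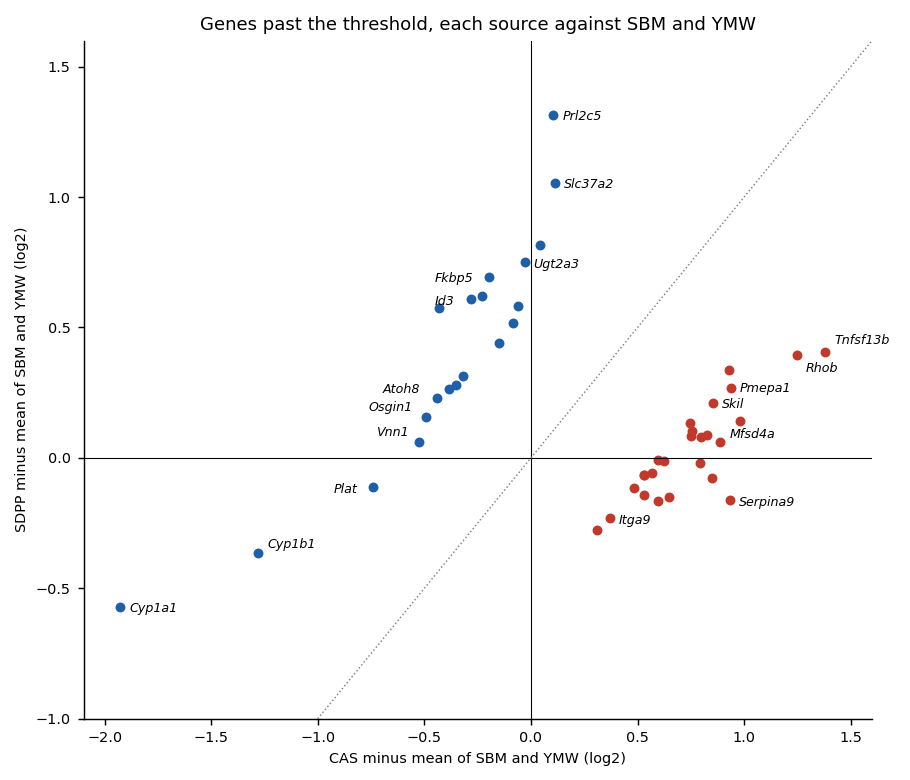
Log2 difference from the mean of SBM and YMW for CAS (horizontal axis) and SDPP (vertical axis), for the 46 named called genes, red where higher with CAS and blue where higher with SDPP; the dotted line marks equal values. Red points spread along the horizontal axis, and blue points range from Prl2c5 at 1.32 for SDPP to Cyp1a1 at −1.93 for CAS.

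Among the 6 pairs of protein sources in the same fit, CAS minus SDPP had neither the most nor the fewest called genes. CAS differed from SBM in 58 genes (0.308%) and from YMW in 53 (0.282%), of which 36 (0.191%) and 29 (0.154%) passed after adjustment by limma. SDPP differed from SBM in 21 genes (0.112%) and from YMW in 24 (0.128%), of which 0 and 0 passed after adjustment, with 827 (4.39%) and 933 (4.96%) at an unadjusted p under 0.05. Both of the last shares are below the 0.05 expected at that threshold when no gene differs. SBM differed from YMW in 31 genes (0.165%). These pairs share arrays, and their counts were not tested against each other.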

How the data were processed

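Log2 intensities of 6 arrays, 3 with CAS and 3 with SDPP, were compared, and 9 arrays served as reference. The intensity values were normalized and deposited by the authors, who used RMA, a method of background correction, quantile normalization and summary over the probes of a probe set. Its version is not given in the sources used here. The deposited values are linear, from 3.02 to 10739.1, although log2 values had been assumed, so log2 was taken. Of 35556 probe sets 21218 had 1 gene symbol in the platform annotation, 1881 several and 12457 none, and the brightest probe set of each of 18820 genes was used. Background was set where 95% of 1159 genes of olfactory and vomeronasal receptors lay below. It was 3.91, with 12880 genes above it. Arrays hold no counts, and their number limits the precision. Within groups the arrays correlated at 0.958 to 0.995, and no arrays were identical.

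With an intensity trend, limma 3.58.1 under R 4.3.3 was fitted to the 12 arrays of the protein sources. MC arrays were left out because they are known to spread more. The script was tested on simulated data. The 52 gene lists, with 1058 of 1161 entries measured, and the named genes were chosen with earlier results of these data known. The members and median of 1 list with a called gene are not reported here. Named were up to 15 genes each way that were called, not overlapping and above background, up to 4 called members of a list or otherwise up to 2 above background, Tnfsf13b, Cyp1a1, Rhob, Mfsd4a, Fkbp5 and Id3, and receptors, ligands and regulators of the pathways reached. Predicted genes, olfactory, taste and vomeronasal receptors and small RNAs were counted only. The alternatives were other array sets, variance models, scalings, filters, folds, a replicate block, array weights, all probe sets and each array left out.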

Additional observations from a re-analysis of the deposited data

How the results depend on the processing

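The count of 49 called genes was 33 with all 15 arrays in the fit, where 24 were higher with CAS and 9 with SDPP, and 41 with the CAS and SDPP arrays alone, and every gene of these counts was among the 49. It was 957 with no fold threshold, 4 at a fold change of at least 2, 108 with array weights (34 and 74) and 278 over all 35556 probe sets, where other features are tested. Without single arrays it lay between 34 and 217. Centring arrays on their median gave 52 genes, 25 higher with CAS and 27 with SDPP, in place of 29 and 20. The 9 genes at an adjusted p under 0.05 became 4 with 15 arrays, 2 with the CAS and SDPP arrays alone, 3 with 1 prior variance, 3 with centred arrays, 22 with array weights, 4 over all probe sets, 0 at a fold change of at least 2, and 2 to 9 without single arrays, so the count depends on these settings. It was 2 without CAS replicate 2, 3 without SDPP replicate 1 or 2, SBM replicate 2 or YMW replicate 2 or 3, 4 without CAS replicate 1 and 5 without SDPP replicate 3 or SBM replicate 3. Tnfsf13b and Mfsd4a had an adjusted p of at most 0.0160 in the 13 settings followed for single genes. The 21 genes of SDPP against SBM and YMW became 4 with 15 arrays and 10 to 189 without single arrays, and the 41 of CAS 40 to 65. The 13 lists with a called member became 6 to 34, with 28 without CAS replicate 3, 34 without SDPP replicate 3, and 7, 8 and 6 without CAS replicate 1, CAS replicate 2 and SDPP replicate 1. Of 572 list medians 569 moved by less than the spread. Among the values for named genes 138 lost the call and 61 gained it in the same direction, and no called gene changed sign. Changes of sign among genes without a call were not counted. The cause of these moves was not tested. Signals near background limit Cyp1a1, Serpina9, Itga9 and Dppa3.

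No pairing of the arrays by replicate number was visible. Of 18 pairs of arrays with the same number 4 correlated above 0.1 in their deviations from the group means, with a median of −0.154, and 1 of 12 arrays was most like an array of its own number. Those deviations include the ones of the arrays that stand apart, so a smaller effect shared by arrays of 1 mouse could go unseen. Pairing by mouse was therefore not tested. With the replicate number as a block 46 genes were called, 29 higher with CAS and 17 with SDPP, all among the 49, and 3 passed an adjusted p of 0.05.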

Other observations

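Probe sets without a single gene name were called more often than named ones. Fitted over all 35556 probe sets, 236 of 14338 without a single name met the threshold (1.65%), of which 97 had a mean above background, against 42 of 21218 named ones (0.198%). The probe set 10481711, without a name here, had a larger difference than any called gene. Its log2 intensity was 8.49, 8.33 and 8.08 with CAS and 6.78, 6.95 and 6.96 with SDPP, a difference of 1.40 (SE 0.13, adjusted p = 0.00416 from limma over all probe sets). It was 7.02, 5.73 and 6.03 in MC replicates 1 to 3, and no SBM or YMW array was above the highest of these, so the CAS arrays lay above all others. It was chosen after its values were seen.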
